A study of Mus musculus with 2 samples.

Results

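The Hox genes are 39 genes in 4 clusters that encode transcription factors of body position. They were taken by symbol, Hoxa, Hoxb, Hoxc or Hoxd followed by a paralog number, out of 53698 gene entries measured in single kidney cells of FVBN mice. All 39 genes were found, in 40 entries, since Hoxd4 had 2 entries, which were summed. The study profiled kidney cells described by the labels as positive for PDGFR alpha and PDGFR beta, receptors of fibroblasts and pericytes, with droplet-based 3′ RNA sequencing. One library carries the label sham. The other carries the label UUO (unilateral ureteral obstruction, in which a ureter is tied to bring on kidney fibrosis) and was taken on day 10. Strain, digestion and chemistry were the same for both in the labels, which name no transgene and do not say how many animals gave each library. Each captured transcript is counted once by its unique molecular identifier (UMI). With 1 library per group, no test between the libraries was possible, no p-value is given, and each 95% interval covers counting error only. Injury genes do not all follow the labels in these files, so the groups are named as labelled and no difference is read as an effect of obstruction.

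Hox proteins bind DNA through a homeodomain, a domain of helices encoded by the homeobox, usually together with partner proteins of the PBC and Meis families. Genes with the same paralog number descend from 1 ancestral gene and lie at the same place in each cluster. Along a cluster, genes with low numbers are active towards the head and those with high numbers towards the tail, and adult fibroblasts are known to keep the combination of the place where they arose. In the kidney the group 10 and group 11 genes are best known: group 11 genes are needed for the ureteric bud to form and group 10 genes for the stroma to mature.

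The homeoboxes of the genes at the centre of the results are printed to show how alike the measured members are where they touch DNA. Hoxa10, Hoxc10 and Hoxd10 make up the paralog group with the highest sum in stromal cells. Hoxa11 and Hoxd11 differed in opposite ways between the libraries, and Hoxb9 was higher in tubule than in stromal cells. Each sequence is the 180-base homeobox from the GENCODE M21 transcripts (GRCm38), read 5′ to 3′ on the coding strand. Capitals mark the 12 bases that encode a conserved stretch of the recognition helix. The residues of that stretch and of the codon after it were used to find the box.
Hoxa10: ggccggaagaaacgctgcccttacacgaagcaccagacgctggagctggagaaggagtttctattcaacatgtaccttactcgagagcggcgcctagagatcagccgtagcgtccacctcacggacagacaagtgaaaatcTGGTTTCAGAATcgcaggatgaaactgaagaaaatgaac
Hoxc10: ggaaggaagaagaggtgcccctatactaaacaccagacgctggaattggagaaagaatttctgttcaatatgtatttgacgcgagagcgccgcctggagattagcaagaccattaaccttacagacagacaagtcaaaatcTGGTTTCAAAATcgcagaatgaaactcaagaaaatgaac
Hoxd10: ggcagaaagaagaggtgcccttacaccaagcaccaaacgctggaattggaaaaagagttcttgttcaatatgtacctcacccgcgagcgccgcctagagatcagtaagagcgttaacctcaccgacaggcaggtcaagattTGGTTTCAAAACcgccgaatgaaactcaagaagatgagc
Hoxa11: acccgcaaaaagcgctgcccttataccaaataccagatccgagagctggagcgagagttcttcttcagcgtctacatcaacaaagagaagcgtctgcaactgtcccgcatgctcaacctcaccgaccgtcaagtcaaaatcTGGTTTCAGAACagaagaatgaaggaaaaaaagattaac
Hoxd11: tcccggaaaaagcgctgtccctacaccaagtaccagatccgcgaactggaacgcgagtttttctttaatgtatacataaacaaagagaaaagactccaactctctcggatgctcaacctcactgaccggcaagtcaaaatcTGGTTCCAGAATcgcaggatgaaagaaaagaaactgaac
Hoxb9: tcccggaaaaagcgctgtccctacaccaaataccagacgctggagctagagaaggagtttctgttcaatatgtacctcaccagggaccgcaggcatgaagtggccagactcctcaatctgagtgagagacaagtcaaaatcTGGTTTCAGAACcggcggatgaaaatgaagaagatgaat
The homeoboxes of Hoxa10 and Hoxc10 were identical at 80.6% of bases, those of Hoxa10 and Hoxd10 at 78.9%, and those of Hoxc10 and Hoxd10 at 82.8%. The encoded residue was the same at 56, 57 and 57 codons. Hoxa11 and Hoxd11 shared 80.6% of bases. Over the 42 pairs of genes with the same paralog number, identity ran from 67.2% to 93.9% with a median of 80.6%, beside 48.3% to 88.9% with a median of 61.7% over 172 pairs within a cluster. Hoxa10 lies on chromosome 6 at 52231197 to 52240854 (minus strand), Hoxd10 on chromosome 2 at 74691924 to 74695105 and Hoxd11 at 74679557 to 74687016 (plus strand), and Hoxc10 on chromosome 15 at 102966796 to 102971893 (plus strand). Among the Hox entries matched to the annotation, exons of 8 genes overlap another gene on the same strand, such as Hoxc10 with Hoxc5, and those of Hoxd3 overlap Hoxd4, whose own entries were not matched. Exons of 9 overlap a gene on the opposite strand, such as Hoxa11 with Hoxa11os. The sources used here do not say whether counting used strand, so reads of such pairs cannot be told apart with certainty. Hoxd4 and Hoxd3 are the most uncertain members, since most of their nonzero values labelled sham were fractions (1174 of 1300 and 54 of 63). Labelled UUO, 56 of 74 Hoxd4 values and 1 of 4 Hoxd3 values were fractions. Hoxd4 had 745 UMIs in retained cells labelled sham. Sharing of UMIs between its own summed entries and sharing with other genes were not told apart.

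The library labelled sham held 10812 barcodes and 85359332 UMIs, the library labelled UUO 1291 barcodes and 6023072 UMIs, and 16 barcodes occurred in both. After filters on depth, gene number and mitochondrial share, 10656 and 1052 cells remained, with medians of 7824 and 4154 UMIs. Cells were put into classes by UMIs of markers among which there is no Hox gene. Stromal cells, at least 50 UMIs per 10000 from the panel and with at least 4 of the markers Pdgfra, Pdgfrb, Col1a1, Col1a2, Col3a1, Dcn, Lum and Fbln1 present, numbered 8453 and 577. Pdgfra was detected in 77.2% and 68.3% of them and Pdgfrb in 82.5% and 49.9%. The class is a range on a scale: 579 and 60 of its cells lay within 20% above that minimum, and 373 and 47 unassigned cells within 20% below it. The median endothelial panel in stromal cells was 2.21 per 10000 in each library, the macrophage panel 1.64 and 0, and the proximal tubule panel 0 labelled sham and 7.33 labelled UUO. In all, 1072 and 303 cells stayed unassigned and 255 and 22 with markers of more than 1 class were left out.

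Stromal cells of the adult kidney carried transcripts of all but 6 Hox genes in the library labelled sham and all but 7 in the one labelled UUO, weighted to the high paralog numbers. The summed level of the 39 genes was 836.2 CPM (counts per 1e6 UMIs, exact Poisson 95% interval 829.5 to 842.9) in the library labelled sham, from 59657 Hox UMIs, and 561.0 CPM (537.5 to 585.5) in the library labelled UUO, from 2120. Paralogs 9 to 13 made up 71.4% and 61.3% of these UMIs, paralogs 4 to 8 made up 24.4% and 35.4%, and paralogs 1 to 3 made up 4.17% and 3.26%. In bulk sums such as these, fewer expressing cells and less RNA per cell cannot be told apart. CPM values here count transcript ends and are not divided by gene length, since each transcript is tagged once.

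**Figure D1:**
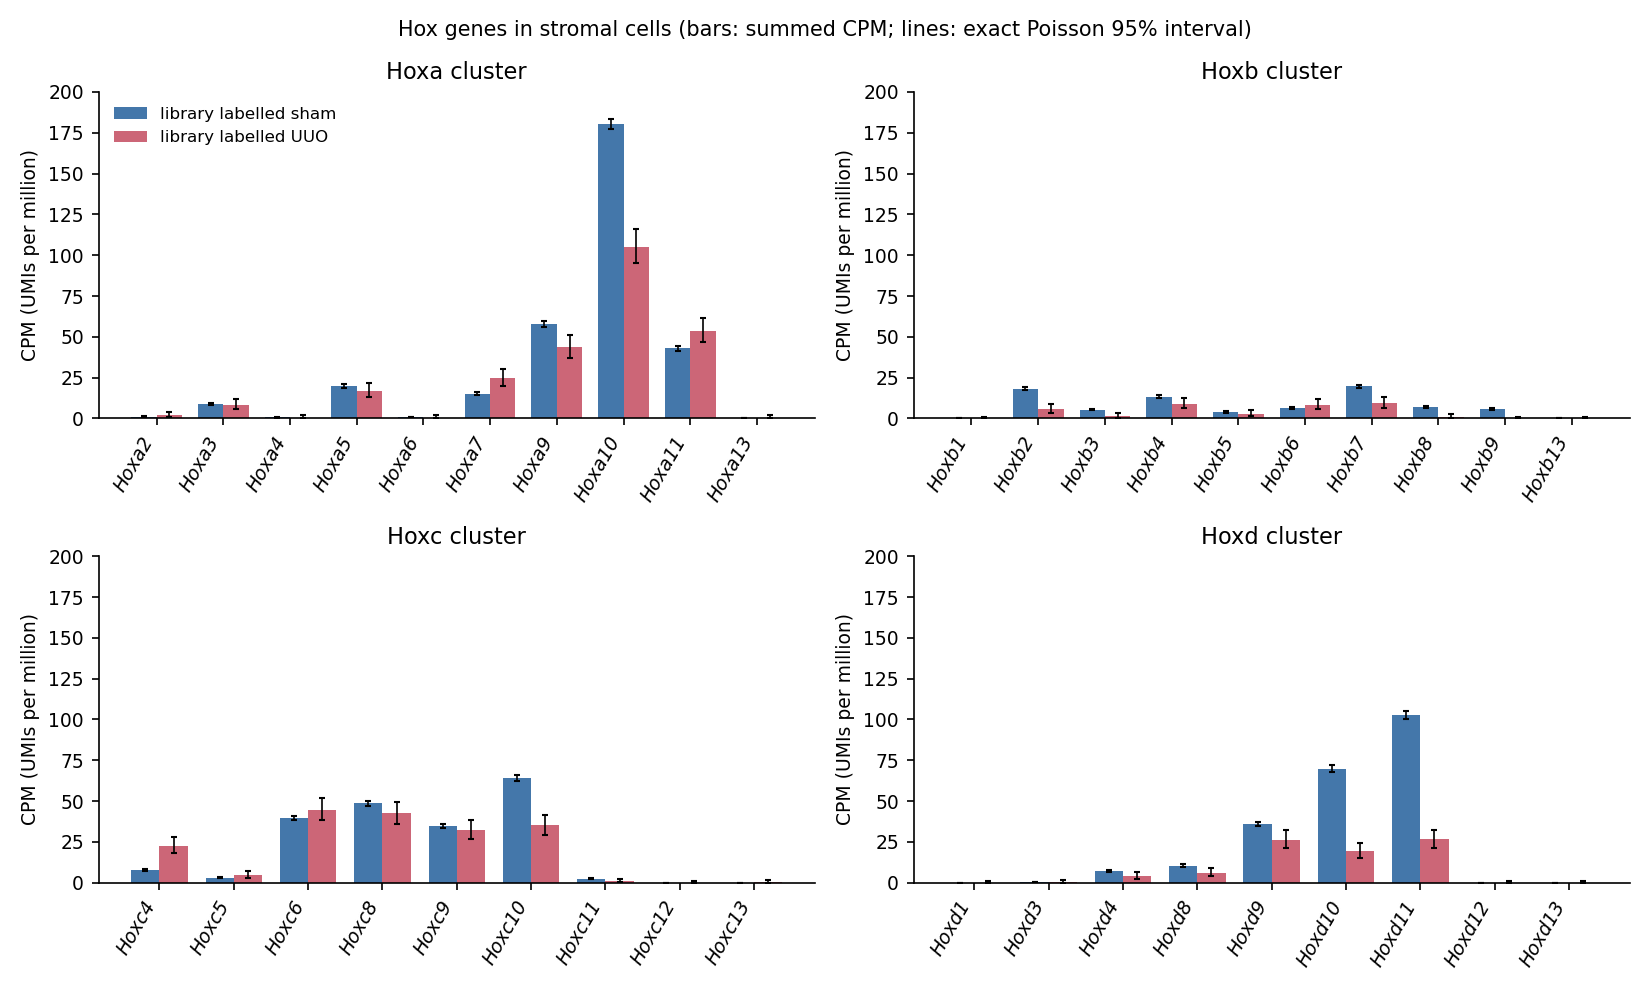
Level of 38 Hox genes in stromal cells, in CPM, by cluster and paralog number, for the library labelled sham (8453 cells) and the library labelled UUO (577 cells). Bars are summed CPM and lines exact Poisson 95% intervals. Hoxa10 is the tallest bar in both libraries, and Hoxd10 and Hoxd11 are tall in the library labelled sham alone.

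Group 10, the group tied to stromal maturation, led in both libraries. Its sum was 314.8 CPM labelled sham and 159.9 CPM labelled UUO, or 37.6% and 28.5% of all Hox UMIs. Hoxa10 was at 180.5 CPM in the library labelled sham and 105.3 CPM in the library labelled UUO, the highest Hox gene of each. Hoxd10 was at 69.93 and 19.32 CPM. Hoxc10 was at 64.36 and 35.2 CPM. The intervals of Hoxd10 and Hoxc10 did not meet in either library, with Hoxd10 above Hoxc10 in the one labelled sham and below it in the one labelled UUO.

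Group 11, needed for the ureteric bud, came next in the library labelled sham and after group 9 in the other. Hoxd11 was at 102.6 CPM labelled sham and 26.6 CPM labelled UUO. Hoxa11 was at 42.97 and 53.73 CPM, so the order of the pair was opposite in the 2 libraries. Hoxc11 was at 2.355 and 0.794 CPM. The group 9 sum was 134.3 CPM labelled sham and 102.2 CPM labelled UUO. Its members Hoxa9 (57.63 and 43.67 CPM), Hoxd9 (35.97 and 26.47 CPM) and Hoxc9 (34.82 and 32.03 CPM) came in that order in the first library, with Hoxc9 above Hoxd9 in the second, and Hoxb9 had 419 UMIs, 5.873 CPM, in the first and 0 in the second. Of groups 12 and 13, which act in the limb ends, genital region and tail, the sum of all 6 genes was 1 UMI labelled sham and 3 UMIs labelled UUO.

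Below group 9 the Hoxc cluster led. Hoxc8 was at 48.64 and 42.61 CPM in the libraries labelled sham and UUO. Hoxc6 was at 39.6 and 44.73 CPM. Hoxc4 was at 7.821 and 22.76 CPM, the one measured member with a level in the library labelled UUO over double that of the other. Hoxa7 was at 15.14 and 24.88 CPM and Hoxa5, which is active in many mesodermal organs, at 19.92 and 16.94 CPM. Of the Hoxb cluster, Hoxb7 was at 19.76 and 9.528 CPM, Hoxb2 at 18.22 and 5.823 CPM, and Hoxb4 at 13.23 and 8.999 CPM. Hoxd8 was at 10.48 and 6.088 CPM. The members with 10 CPM or more in stromal cells of either library were these and the group 9 to 11 genes above without Hoxb9 and Hoxc11, 17 in all.

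Another 6 members were under 10 CPM in stromal cells and passed the minimum of 20 UMIs and 20 CPM in another class. In stromal cells Hoxb3 was at 5.466 CPM labelled sham and 1.323 CPM labelled UUO, Hoxb5 at 4.121 and 2.911, Hoxb6 at 6.7 and 8.47, Hoxb8 at 6.924 and 1.059, and Hoxd4 at 7.401 and 4.235. Hoxb9 is given above. The remaining 16 members reached at most 8.68 CPM labelled sham and 8.47 CPM labelled UUO in stromal cells, both in Hoxa3, and 6 of them were at 0 in each library. Hoxb13, Hoxc12, Hoxd1 and Hoxd12 had no UMI in stromal cells of either library, where 3 counts, the limit that a count of 0 allows, are 0.042 and 0.794 CPM.

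Each stromal cell showed a small sample of this code. A stromal cell labelled sham held a median of 6 Hox UMIs from 5 Hox genes, 95.5% of cells (exact binomial interval 95 to 95.9) held at least 1, and 27% held UMIs of all 4 clusters. In the library labelled UUO the medians were 3 UMIs and 2 genes, the share was 84.9% (81.7 to 87.7), and 5.55% held all 4 clusters. Median depths were 8468 and 5877 UMIs. With each cell thinned to 2000 UMIs, leaving out 649 and 93 shallower cells, the shares were 79.1% (78.2 to 80.0) and 66.9% (62.6 to 71.1), and the mean numbers of distinct Hox genes 1.54 and 1.14. The difference between the libraries thus stood at equal depth. In the macrophage or dendritic class, leukocytes taken as the background, 49.1% (43.0 to 55.2) of 275 cells labelled sham had a Hox UMI at a median depth of 5127, and 25% (19.1 to 31.7) after the same thinning. The stromal share labelled sham was above that background. With 2 such cells labelled UUO, no background was measured for that library.

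Different classes carried different parts of the Hox code in the same library. Endothelial cells held mostly Hoxb and Hoxa transcripts of the middle paralog numbers, loop or distal tubule cells mostly Hoxb transcripts up to Hoxb9, and stromal cells the high-numbered Hoxa, Hoxc and Hoxd genes. Class markers had the known identities: Pecam1 was in 89.7% of the 360 endothelial cells labelled sham, Umod, the loop protein uromodulin, in 92.9% of the 168 loop or distal tubule cells, and C1qb in 86.5% of the macrophage or dendritic cells. Hox levels played no part in the class rule.

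**Figure D2:**
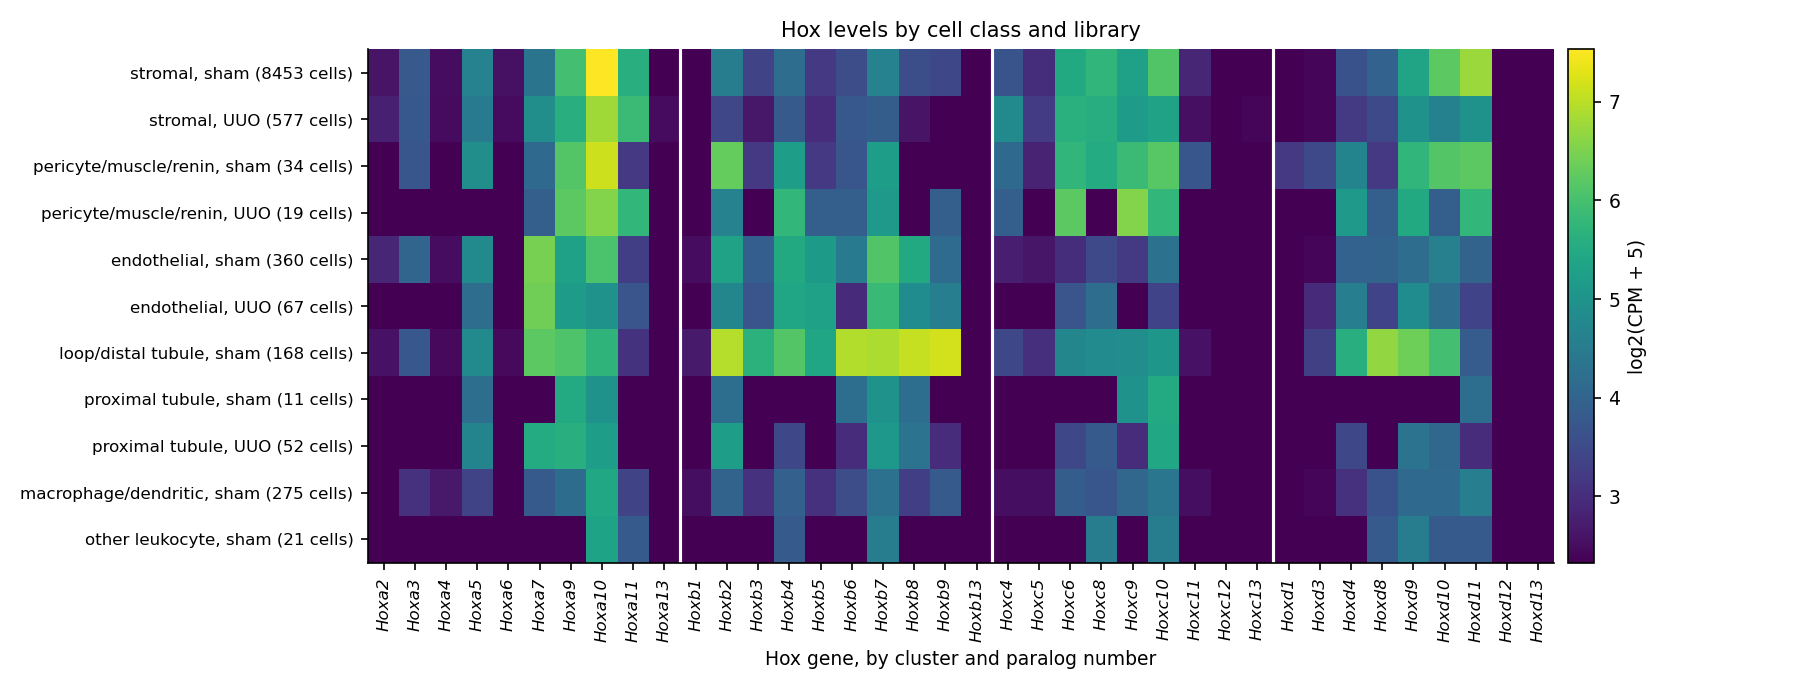
Level of 38 Hox genes (columns, by cluster and paralog number, white lines between clusters) in each class of at least 10 cells (rows, with library and number of cells), as log2(CPM + 5). Stromal rows are bright at Hoxa9 to Hoxa11 and Hoxc6 to Hoxc10, endothelial rows at Hoxa7 and Hoxb7, and the loop or distal tubule row at Hoxb2 and Hoxb6 to Hoxb9.

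Endothelial cells had less Hox RNA in sum and far more from the Hoxb cluster. In the library labelled sham their sum was 568.8 CPM, 0.680 times that of stromal cells (exact 95% interval 0.637 to 0.725), and in the library labelled UUO 455.9 CPM, 0.813 times (0.692 to 0.950). The Hoxb cluster was at 249.9 CPM labelled sham against 80.34 in stromal cells, 3.11-fold higher (2.81 to 3.44), and at 198.8 CPM labelled UUO against 38.11, 5.22-fold higher (3.89 to 6.94). The Hoxc cluster was at 30.72 CPM labelled sham against 200.6 in stromal cells, 6.53-fold lower (4.97 to 8.78), and at 26.51 CPM labelled UUO against 182.9, 6.90-fold lower (3.73 to 14.5). Both directions were thus the same in the 2 libraries. Labelled sham, Hoxc6, Hoxc8, Hoxc9 and Hoxc10 were at 3.011, 6.023, 4.216 and 14.45 CPM in endothelial cells. In macrophages, the background class, they were at 9.531, 8.17, 11.57 and 15.66 CPM. Hoxc4 was at 1.807 and 0.6808 CPM, and Hoxc5 also went the other way. The part of such background in the Hoxc ratio was not tested. The Hoxd cluster was 3.48-fold lower (2.88 to 4.25) in endothelial than in stromal cells labelled sham. Labelled UUO, the 2 classes were at 68.92 and 82.98 CPM and the interval of the ratio held 1 (0.533 to 1.24).

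By gene, 22 Hox genes reached 10 CPM in endothelial or stromal cells labelled sham, and after adding 5 CPM to both levels 5 were higher in endothelial cells by 2-fold or more and 9 were lower by as much. Of all 9566 genes compared in that way, 11% were higher and 9.89% lower. The 5 higher members were Hoxa7, Hoxb4, Hoxb5, Hoxb7 and Hoxb8. Hoxa7 was at 83.7 CPM in endothelial and 15.1 CPM in stromal cells labelled sham, and at 79.5 and 24.9 CPM labelled UUO, 5.53-fold (4.6 to 6.6) and 3.20-fold (2.05 to 4.87) higher. Hoxb5 was at 30.72 against 4.121 CPM labelled sham and 34.46 against 2.911 CPM labelled UUO. Hoxb8 was at 39.75 against 6.924 CPM and 23.86 against 1.059 CPM. The 9 lower members were Hoxa10, Hoxa11, Hoxc6, Hoxc8, Hoxc9, Hoxc10, Hoxd9, Hoxd10 and Hoxd11. Hoxc6 was at 3.011 CPM in endothelial cells labelled sham against 39.6 CPM in stromal cells, 13.2-fold lower (5.63 to 40.5), and Hoxd11 at 10.84 against 102.6 CPM, 9.46-fold lower (5.98 to 16.0). In the library labelled UUO, 8 of 20 members were higher by that rule and 8 lower, with 12.9% and 11.7% of all 10458 genes. All 9 of the members lower labelled sham had a ratio under 1 there too, though for Hoxd9 (0.901, 0.401 to 1.78) and Hoxd10 (0.686, 0.216 to 1.67) the interval held 1.

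The loop or distal tubule cells labelled sham had the highest Hox sum of the large classes, 1390 CPM, 1.66-fold above stromal cells (1.60 to 1.73). The Hoxb cluster, 771.0 CPM, made up 55.5% of it and was 9.60-fold higher than in stromal cells (9.07 to 10.2). By the same rule 12 of 22 members were higher and 4 lower, beside 12% and 13.4% of all 9730 genes. Hoxb9 was at 140.1 CPM against 5.873 CPM in stromal cells, 23.9-fold higher (20.5 to 27.8). Hoxb8 was at 130.8 against 6.924 CPM, 18.9-fold higher (16.2 to 22.0), and Hoxb6 at 117.0 against 6.7 CPM, 17.5-fold higher (14.9 to 20.5). Hoxb2 was at 119.0 CPM and Hoxb7 at 114.6 CPM, against 18.22 and 19.76 CPM. The Hoxb cluster thus stood above stromal cells from Hoxb2 to Hoxb9.

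Outside the Hoxb cluster, Hoxd8 was at 98.83 CPM in these tubule cells against 10.48 CPM in stromal cells, 9.43-fold higher (8.03 to 11.03), Hoxd4 at 43.15 against 7.401 CPM and Hoxa7 at 69.82 against 15.14 CPM. Hoxd9 was 2.17-fold higher (1.84 to 2.55). The 4 lower members were Hoxa10, Hoxa11, Hoxc10 and Hoxd11. Hoxd11 was at 9.342 against 102.6 CPM, 10.98-fold lower (7.03 to 18.2), and Hoxa11 at 3.442 against 42.97 CPM. Hoxd10, a direct neighbour of Hoxd11, was at 58.02 against 69.93 CPM. The level of Hoxd RNA thus dropped between Hoxd10 and Hoxd11 in tubule cells, while in stromal cells of the same library Hoxd11 was the higher of the pair. The antisense gene Hoxb5os, named after its values were seen, was at 96.37 CPM in tubule cells and 4.976 CPM in stromal cells, and its exons overlap those of Hoxb5. With 3 cells, this class gave no comparison in the library labelled UUO.

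**Figure D3:**
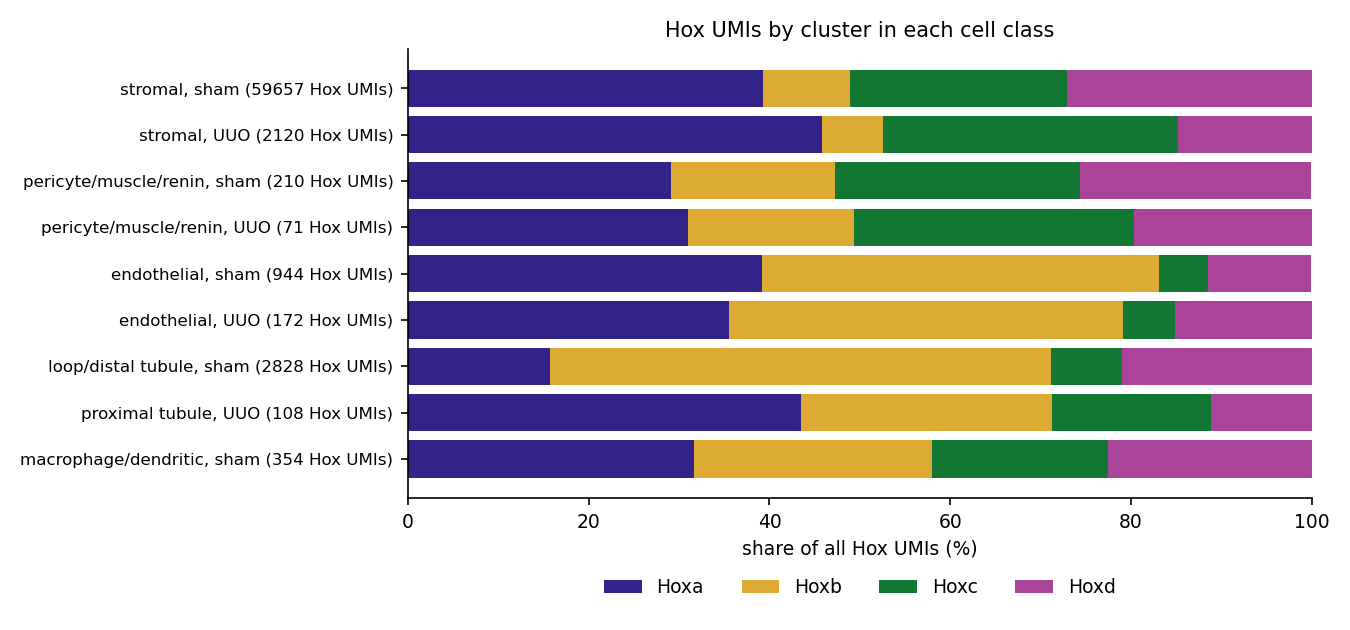
Share of all Hox UMIs (x axis, percent) from each of the 4 clusters, for each class with at least 50 Hox UMIs (rows, with library and number of Hox UMIs). The Hoxb share is 9.61% and 6.79% in stromal cells, 43.9% and 43.6% in endothelial cells and 55.5% in loop or distal tubule cells.

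In smaller classes only sums and single genes are compared where cells number under 50. Pericyte, smooth muscle or renin cells, 34 labelled sham and 19 labelled UUO, had Hox sums of 859.2 and 706.4 CPM, with intervals of the ratio to stromal cells that held 1 (0.895 to 1.18 and 0.980 to 1.60). These cells could also pass the stromal minimum, and their stromal panel had medians of 38.2 and 21.2 per 10000. Their Hoxb cluster was 1.94-fold higher (1.37 to 2.67) and 3.39-fold higher (1.76 to 5.99) than in stromal cells. Hoxb2 was at 73.82 CPM there labelled sham against 18.22 CPM, 4.05-fold higher (2.39 to 6.43). Proximal tubule cells labelled UUO, 52 cells, had a Hox sum of 317.7 CPM, 0.566 times stromal (0.462 to 0.687), and 3 of 16 members were higher by the 2-fold rule and 7 lower, beside 16.3% and 27.9% of all genes. The 11 proximal tubule cells labelled sham, with 17 Hox UMIs, had a sum of 230.8 CPM (134.5 to 369.6), too few for values by gene. Hoxa11 had no UMI in the 52 cells labelled UUO against 53.73 CPM in stromal cells, and Hoxa9 was at 44.13 against 43.67 CPM (ratio interval 0.553 to 1.72). The group 11 and group 9 genes of the Hoxa cluster thus stood differently in these cells, in a library whose stromal cells also carried proximal tubule markers at 7.33 per 10000.

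Leukocytes labelled sham had less Hox RNA than stromal cells. Macrophage or dendritic cells labelled sham were at 240.7 CPM, 3.47-fold below stromal cells (3.13 to 3.86), and 21 T cells at 150.6 CPM, 5.55-fold below (3.47 to 9.53). By the 2-fold rule 0 of 16 members were higher in macrophages and 11 lower, beside 10.1% and 16.9% of 9269 genes. The stromal panel of macrophages and T cells was at 14.7 and 20.3 per 10000, against 111 in stromal cells, and the part of such stromal transcripts in their Hox level was not tested. The Hoxb cluster was 63.31 CPM in macrophages against 80.34 CPM in stromal cells, a smaller gap than that of the other clusters, which were 4.16-fold to 4.31-fold lower. The 4 leukocytes labelled UUO had no Hox UMI, which for 2 cells of each class allows a share of cells of up to 84.2%.

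Between the libraries, Hox RNA in stromal cells was lower in the library labelled UUO, and by very different amounts per cluster. The sum was 1.49-fold lower (1.43 to 1.56). The Hoxd cluster was at 226.6 CPM labelled sham and 82.98 CPM labelled UUO, 2.73-fold lower (2.44 to 3.06). The Hoxb cluster was at 80.34 and 38.11 CPM, 2.11-fold lower (1.79 to 2.505). The Hoxa cluster was at 328.6 and 257.0 CPM, 1.28-fold lower (1.199 to 1.37), and the Hoxc cluster at 200.6 and 182.9 CPM, 1.10-fold lower (1.02 to 1.19). Paralogs 4 to 8 stood at 204.3 and 198.8 CPM with an interval of the ratio that held 1 (0.903 to 1.05), while paralogs 9 to 13 were 1.74-fold lower (1.64 to 1.84). The stromal class itself differed by marker. In it Dcn was at 2797 CPM labelled sham and 15551 CPM labelled UUO, and Col3a1 at 3823 and 2101 CPM. Unassigned cells, whose Hox levels are given below, made up 10.06% and 28.8% of cells. How far the class rule took different cells in the 2 libraries was not tested.

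Of the 17 members measured, after adding 5 CPM, 1 was higher by 2-fold or more in the library labelled UUO and 3 were lower by as much. Over all 9604 genes compared, 12.1% were higher and 5.19% lower. The median log2 ratio was -0.38 over the members and -0.04 over all genes. Intervals of the ratio lay under 1 for 10 members, above 1 for 3 and held 1 for 4, beside 34.2% under 1 and 32% above 1 over all genes. The 3 lower members were Hoxd11, 3.88-fold lower (3.18 to 4.77), Hoxd10, 3.62-fold lower (2.87 to 4.63), and Hoxb2, 3.13-fold lower (2.06 to 5.01). The higher member was Hoxc4, 2.91-fold higher (2.29 to 3.66). Hoxa7, 1.64-fold higher (1.32 to 2.03), and Hoxa11, 1.25-fold higher (1.08 to 1.44), were the other 2 with intervals above 1. Hoxb9, at 419 UMIs labelled sham and 0 labelled UUO, was at least 7.40-fold lower against 3 counts over the group (5.99-fold by the lower end of the exact interval), and Hoxb8, at 494 and 4 UMIs, 6.54-fold lower (2.54 to 24.1); both were under the minimum of 10 CPM.

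**Figure D4:**
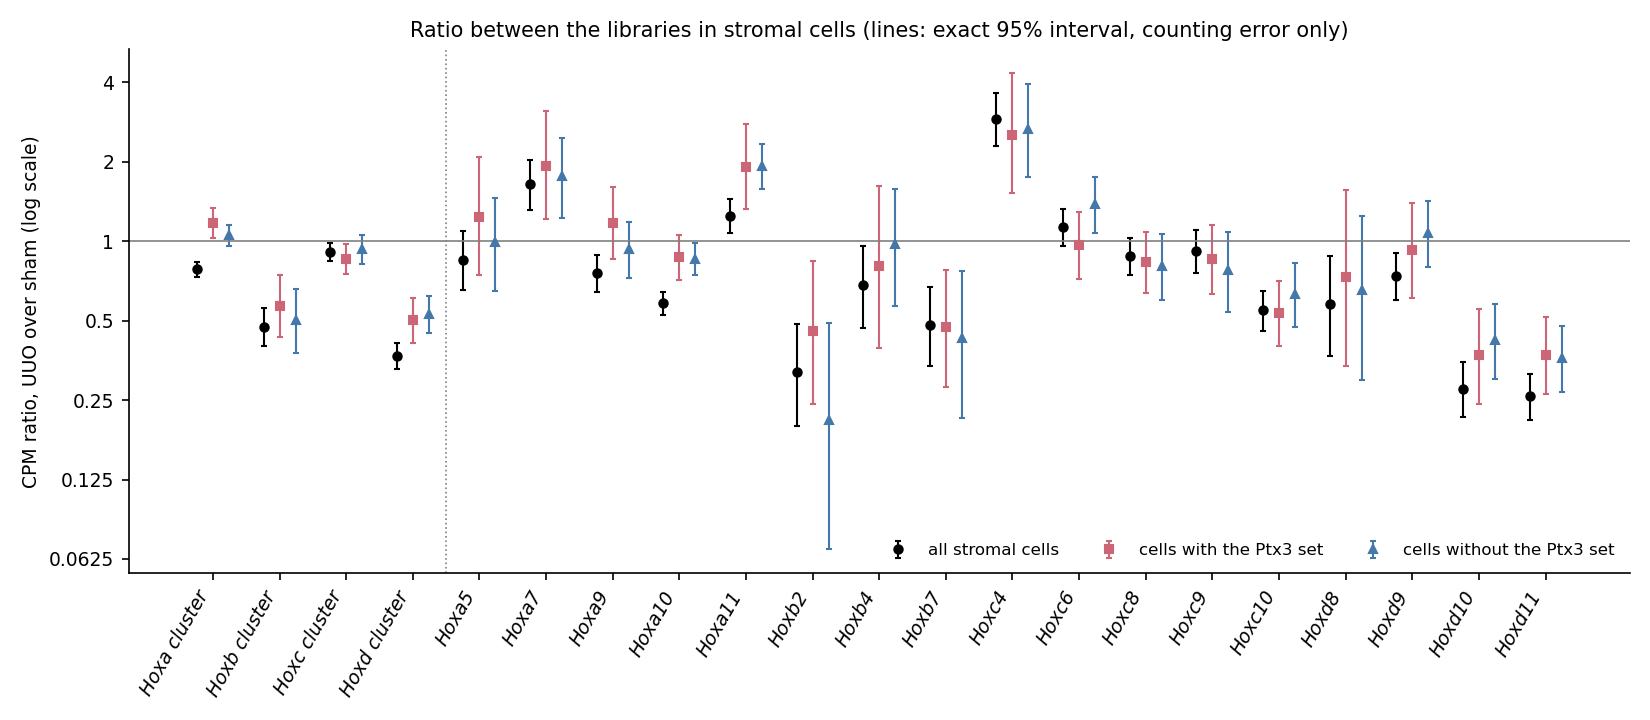
Ratio of CPM in stromal cells, library labelled UUO over library labelled sham (log scale), for the 4 clusters and the 17 measured Hox genes, in all stromal cells and in those with and without UMIs of the Ptx3 set. Lines are exact 95% intervals for counting error. The Hoxa cluster lies at 0.782 in all cells and at 1.17 and 1.05 in the subsets, and Hoxd10 and Hoxd11 lie below 0.5 in all 3.

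The makeup of the stromal cells also differed between the libraries, and its part in the Hox difference was not tested. Marker sets of 3 genes each were used to divide stromal cells, with UMIs of at least 2 markers needed. The set of Ptx3, C3 and Sfrp4, a pattern recognition protein, a complement component and a Wnt modulator, covered 2.46% of stromal cells labelled sham and 50.1% of those labelled UUO. Cells of this set had less Hoxa and Hoxd RNA than other stromal cells in each library, and the intervals of the Hoxc ratio held 1. In the library labelled sham, Hoxa was at 177.4 CPM in the set and 333.7 outside it (0.531 times, 0.481 to 0.586) and Hoxd at 125.9 and 230.0 CPM (0.546 times, 0.485 to 0.613). In the library labelled UUO, Hoxa was at 207.4 and 351.4 CPM (0.590 times, 0.519 to 0.671) and Hoxd at 62.76 and 121.5 CPM (0.518 times, 0.413 to 0.651). The Hoxc ratios were 1.06 (0.964 to 1.16) and 0.968 (0.826 to 1.14). Cells of the set were deeper than the others, with medians of 10253.5 against 8416 UMIs and 8578 against 3561.5 UMIs.

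Among single genes, Hoxa9 to Hoxa11 and Hoxd9 to Hoxd11 were lower in the Ptx3 set in both libraries. Hoxa10 was at 89.76 CPM in the set against 183.6 outside it labelled sham and at 77.89 against 157.6 labelled UUO. Hoxa11 was at 19.66 against 43.76 CPM and 37.53 against 84.58 CPM. Hoxd11 was at 56.64 against 104.1 CPM and 20.78 against 37.68 CPM. Hoxd10 was at 37.19 against 71.04 CPM and 13.72 against 29.99 CPM. Hoxa9 was at 32.48 against 58.49 CPM and 37.94 against 54.6 CPM, and Hoxd9 at 21.37 against 36.46 CPM and 19.78 against 39.22 CPM. For these 6 genes the interval of the ratio lay under 1 in each library. The share of all genes with such an interval is not given here, so the 6 are not set against it. Hoxc8, by contrast, was at 53.43 against 48.47 CPM and 44.4 against 39.22 CPM, and Hoxc9 at 40.61 against 34.62 CPM and 34.71 against 26.91 CPM, with intervals that held 1.

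Taken within these subsets, the difference between the libraries was smaller, and for the Hoxa cluster it was gone or opposite. In cells with the Ptx3 set Hoxa was at 177.4 CPM labelled sham and 207.4 CPM labelled UUO (1.17 times, 1.03 to 1.33), and in cells without it at 333.7 and 351.4 CPM (1.05 times, 0.958 to 1.16). The 1.28-fold lower Hoxa level over all stromal cells was thus not seen in either subset. The Hoxd cluster stayed lower in the library labelled UUO, 2.00-fold (1.64 to 2.44) with the set and 1.89-fold (1.62 to 2.23) without it, against 2.73-fold over all cells. Hoxd11 was 2.69-fold lower in cells with the set and 2.76-fold lower in those without it, and Hoxd10 2.71-fold and 2.37-fold lower. Hoxa11 was 1.91-fold (1.33 to 2.78) and 1.93-fold (1.58 to 2.34) higher, more than the 1.25-fold of all stromal cells, and Hoxc4 2.53-fold and 2.67-fold higher. The order of Hoxd11 and Hoxa11 thus differed between the libraries in both subsets.

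A second set, Clec3b, Sfrp4 and Pi16, known from adventitial fibroblasts, covered 4.33% of stromal cells labelled sham and 75.6% labelled UUO and shares Sfrp4 with the Ptx3 set. Its cells had 0.684 times (0.640 to 0.730) and 0.686 times (0.579 to 0.818) the Hoxa RNA of other stromal cells and 0.674 times (0.622 to 0.729) and 0.472 times (0.361 to 0.625) the Hoxd RNA. Within it and outside it the Hoxa ratio between the libraries was 1.07 (0.968 to 1.17) and 1.06 (0.902 to 1.24). The Hoxd level labelled UUO was 2.12-fold (1.83 to 2.47) and 1.49-fold (1.18 to 1.91) lower.

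**Figure D5:**
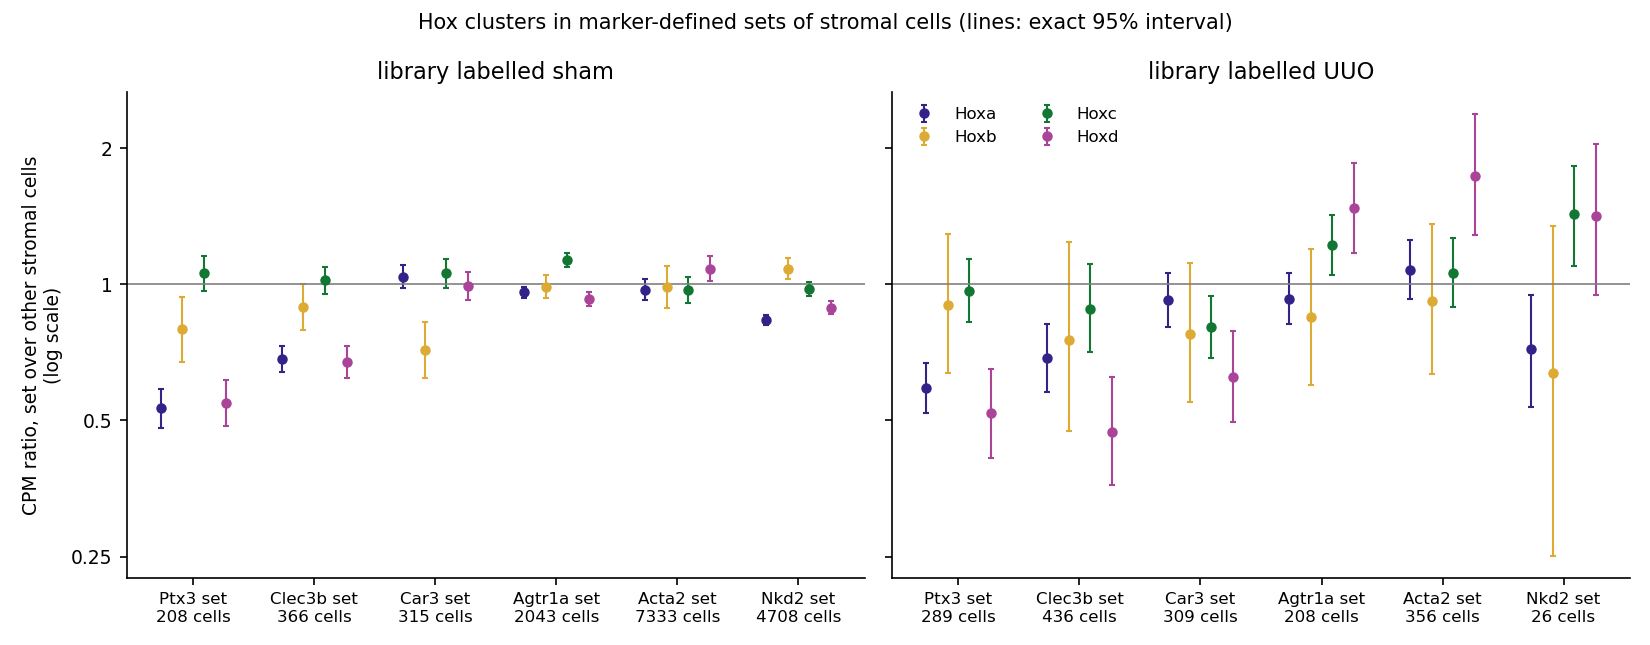
CPM of each Hox cluster in stromal cells with a marker set over that in the other stromal cells of the same library (log scale), for 6 sets, with exact 95% intervals. In the Ptx3 and Clec3b sets the Hoxa and Hoxd points lie below 0.7 in both libraries and the Hoxc intervals reach 1.

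Further sets were compared in the same way. The set of Nppc, Gpm6a and Alx1, a homeobox gene of the face, held 1368 stromal cells labelled sham and 1 labelled UUO. In it Hoxa10 was at 233.2 CPM against 167.0 in other stromal cells (1.40 times, 1.34 to 1.45), Hoxa11 at 54.75 against 39.96 CPM and Hoxb9 at 9.974 against 4.823 CPM (2.07 times, 1.68 to 2.54), while Hoxa5 was at 14.31 against 21.35 CPM (0.670 times, 0.576 to 0.777). High-numbered Hoxa genes were thus above, and Hoxa5 below, other stromal cells. In cells with UMIs of at least 2 of Acta2, Tagln and Myl9, contractile genes of myofibroblasts, the Hox sum was 836.2 CPM labelled sham against 835.4 in the other stromal cells, and 578.0 against 512.7 CPM labelled UUO. The sums of all stromal cells, 836.2 and 561 CPM, lay nearer to the set than to the other cells. The set thus held most stromal UMIs and is not a small myofibroblast subset.

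Cells with transcripts of Xist, active in female cells, and cells with Y-linked transcripts were present in both libraries. Stromal cells with Xist UMIs and no Y-linked UMI numbered 4932 labelled sham and 162 labelled UUO, and cells with Y-linked UMIs alone 1374 and 168; another 1105 and 66 held both. The Hoxd cluster was at 227.3 and 81.0 CPM in Xist cells, 2.81-fold lower labelled UUO (2.28 to 3.503), and at 230.1 and 85.25 CPM in Y-linked cells, 2.69-fold lower (2.22 to 3.28). The 2 splits gave intervals that overlap. The Hoxa cluster was 1.15-fold lower (1.03 to 1.29) in Xist cells and 1.41-fold lower (1.26 to 1.59) in Y-linked cells.

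By class, the Hoxd ratio between the libraries varied. Pericyte, smooth muscle or renin cells were at 219.4 CPM labelled sham and 139.3 CPM labelled UUO, the direction of stromal cells, with an interval that held 1 (0.629, 0.323 to 1.15). Endothelial cells had Hoxd levels of 65.04 CPM labelled sham and 68.92 CPM labelled UUO (ratio 1.06, 0.663 to 1.64), whose interval lies above the stromal one (0.327 to 0.410). The sham levels were near the macrophage background. Hoxd11, Hoxd10, Hoxd9 and Hoxd8 were at 10.84, 19.27, 13.25 and 10.84 CPM in endothelial cells. In macrophages they were at 18.38, 12.25, 12.25 and 7.489 CPM. The part of such background in the endothelial Hoxd ratio was not tested. The Hoxa cluster of endothelial cells was at 223.1 and 161.7 CPM (0.726, 0.544 to 0.954), and Hoxa10 at 61.43 and 26.51 CPM (0.432, 0.201 to 0.826). In unassigned cells, whose stromal panel had medians of 40.6 and 36.2 per 10000, the Hox sums were 835.2 and 847.2 CPM (ratio 1.02, 0.936 to 1.10) and the Hoxd cluster 186.7 and 183.0 CPM (0.983, 0.824 to 1.17). Their Hoxb2 was at 32.39 and 4.831 CPM (0.149, 0.0402 to 0.388), lower labelled UUO as in stromal cells. The difference in the Hoxd cluster was thus not seen in these cells, while Hoxb2 had the same direction in both classes. Hoxb9, lower labelled UUO in stromal cells, was at 18.56 CPM labelled sham and 27.78 CPM labelled UUO in unassigned cells. In endothelial cells Hoxb9 was at 12.65 and 18.56 CPM, with a ratio interval that held 1 (0.527 to 3.58). The lower Hoxb9 level was thus not seen in these 2 classes.

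Of 9 PBC, Meis and Prep genes, the partners of Hox proteins, 8 were measured in stromal cells. By the 2-fold rule after adding 5 CPM, 0 were higher and 0 lower in the library labelled UUO, beside 12.1% and 5.19% of all genes, and their median log2 ratio was -0.12. Meis1, a Meis partner, was at 68.91 CPM labelled sham and 61.67 CPM labelled UUO in stromal cells, and Meis2 at 193.2 and 133.7 CPM. By class, Meis2 was at 353.5 CPM (325.5 to 383.3) in endothelial cells labelled sham and 585.8 CPM (511.1 to 668.3) labelled UUO, above its stromal level, while Meis1 was at 18.07 and 18.56 CPM, below its stromal level. Loop or distal tubule cells labelled sham had Meis1 at 6.392 CPM and Meis2 at 16.23 CPM, both below stromal cells. The class with the highest Hox sum thus had the lowest Meis levels of the 3.

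Of the noncoding genes in the clusters, 2 of 11 found were measured in stromal cells. Hotairm1, in the Hoxa cluster, was at 15.43 CPM labelled sham and 40.36 CPM labelled UUO, 2.61-fold higher (2.19 to 3.09). Hoxa11os, on the other strand of Hoxa11, was at 74.74 and 40.76 CPM, 1.83-fold lower (1.56 to 2.17), while Hoxa11 was higher; reads of this pair cannot be told apart without strand. Of 14 measured Polycomb genes, which hold silent Hox genes silent, 0 passed the 2-fold rule after adding 5 CPM, beside 12.1% higher and 5.19% lower of all genes. Their median log2 ratio was -0.03, with Bmi1 (19.53 and 8.205 CPM), Ezh2 (10.96 and 5.823 CPM), Cbx7 (8.396 and 16.94 CPM) and Phf1 (17.38 and 36.26 CPM) at the ends. Of 11 measured Trithorax and demethylase genes, 1 was at least 2-fold higher: Kdm6b, a demethylase of the Polycomb mark, was at 42.09 and 106.1 CPM, while Mllt3 was lowest at 16.16 and 9.528 CPM.

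Among upstream regulators 4 of 14 were measured and 1, the retinoic acid receptor Rarb, was lower by the 2-fold rule after adding 5 CPM, at 37.82 CPM labelled sham and 15.09 CPM labelled UUO; its relative Rarg was at 56.64 and 32.29 CPM. Of 7 measured neighbours of the clusters, 1 was lower by that rule, Skap2, beside the Hoxa cluster, at 39.72 and 17.2 CPM. Hnrnpa1, beside the Hoxc cluster, was at 257.5 and 126.3 CPM, and Cbx5, next to it, at 42.95 and 59.29 CPM. Of 5 measured partners and targets of Hox genes in the kidney, Osr1, an early kidney mesoderm gene, was at 2.579 and 101.6 CPM, and Dcn, which is also a class marker, at 2797 and 15551 CPM. The other one higher by that rule, Tbx18 of the ureter mesenchyme, was at 1.78 and 27.26 CPM and is named after its values were seen. Wt1 was at 46.51 and 22.23 CPM. Of 11 other position genes measured, Foxf1 (6.153 and 47.91 CPM) and Twist2 (8.396 and 50.55 CPM) were at least 2-fold higher and Alx1 (446.8 and 23.69 CPM), also a marker of a set above, was lower, while Nr2f2 was at 432.8 and 302.8 CPM. The other 8 were within 2-fold, beside 12.1% higher and 5.19% lower of all genes.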

How the data were processed

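Single-cell 3′ RNA libraries of FVBN mouse kidney, 1 labelled sham and 1 labelled UUO, were analysed. The authors deposited expected counts, UMIs estimated per gene entry with alevin of Salmon 0.13.1, per the submitters' processing notes, and 92.3% and 91.2% of nonzero values lay within 1e-06 of a whole number. How barcodes were chosen is not stated in the sources at hand. Counts were summed per class and rounded, and levels are CPM of all UMIs of the class.

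Cells needed 500 UMIs, 300 genes and at most 20% mitochondrial UMIs. A class needed 4 markers and 20 UMIs per 10000 (stromal 50). These minimums were set after marker values had been seen, and no marker is a Hox gene. Cells that met 2 classes were left out as possible doublets, and removal by a simulated-doublet score was an alternative. The exception was the pericyte, smooth muscle or renin class, whose cells were kept even when they passed the stromal minimum. Members and lists were chosen with earlier results of these data known.

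Ratios carry exact conditional binomial intervals, levels exact Poisson and shares exact binomial (Clopper-Pearson) intervals, at 95%, for counting error only. Calls needed 10 CPM in either group and a 2-fold ratio after adding 5 CPM. Calls by gene between classes were used for classes of at least 50 cells, a minimum set after the counts were seen. A count of 0 was bounded by 3 counts. Values are given by gene for members with 10 CPM in stromal cells of either library, or 20 counts and 20 CPM in another class. From each other list at most 4 genes were named, those with the 2 largest and 2 smallest log2 ratios at 10 CPM or more, besides Meis1 and Meis2. Results by name of 1 member and 1 partner gene are not reported here; both stay in the sums and counts. Homeoboxes were read from GENCODE M21 transcripts, and 38 of 40 Hox entries were found in that annotation. The ratio code was tested on simulated data. Software was Python 3.11.15 with numpy 2.4.6, scipy 1.17.1, pandas 2.3.3, scikit-learn 1.9.0, leidenalg 0.10.2 and matplotlib 3.10.9.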

Additional observations from a re-analysis of the deposited data

Results flagged for a closer look

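The Hoxc cluster stood at 0.912 times its level labelled sham in stromal cells of the library labelled UUO, and at 1.19 times (1.01 to 1.39) in unassigned cells, which is the opposite direction. The difference was not tested.

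Barcodes removed by the cell filter also held Hox transcripts. The 156 removed barcodes labelled sham were at 611 CPM (531 to 699), from 212 Hox UMIs, and the 239 labelled UUO at 208 CPM (165 to 259), from 80.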

How the results depend on the processing

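No paired analysis was possible because each group is 1 library and the labels give no replicate numbers. Values here are log2 ratios, UUO over sham, in stromal cells unless another quantity is named, and the cause of each shift was not tested. Over all settings the Hoxd cluster ran from -2.04 to -0.56 and the Hoxb cluster from -1.16 to -0.67, both always lower labelled UUO, while the Hoxa cluster ran from -0.49 to 0.22 and the Hoxc cluster from -0.27 to 0.03. With the marker minimum doubled, all 39 genes were at -0.75, Hoxc at -0.27 and Hoxd at -2.04, and the ratio to stromal cells labelled sham was 0.732 for all genes and 3.46 for Hoxb in endothelial cells, 1.73 in loop or distal tubule cells and 0.381 in macrophages, which stood at 0.408 with cells of 2 classes kept. With equal weight per cell Hoxd was at -1.24. With a pseudocount of 20 CPM, 0 members were 2-fold higher. In Xist cells Hoxa was at -0.20 and 0 members were 2-fold higher, and in Y-linked cells all genes were at -0.68, Hoxa at -0.49 and 5 members were 2-fold lower. For these counts of members the share over all genes was not computed, so they are not read as results about the members. In mesenchymal Leiden clusters all genes were at -0.44, Hoxb at -0.70 and Hoxd at -1.08. Percentages of cells with a Hox UMI at 1000 and 2000 UMIs per cell were 56.8 and 79.1 in stromal and 42.7 and 67.7 in endothelial cells labelled sham, 42.9 and 66.9 and 38.1 and 58.2 labelled UUO, and, labelled sham, 19 and 25 in macrophages and 70.7 and 81.8 in loop or distal tubule cells.

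These settings were chosen after seeing the data. With a stromal minimum of 20 per 10000, all genes were at -0.48 and Hoxd at -1.17. Without the Clec3b set all genes were at -0.15, Hoxa at 0.08, Hoxb at -0.67, Hoxc at 0.03, Hoxd at -0.56, Hoxa9 at 0.38, Hoxb4 at 0.30 and Hoxd9 at 0.55, and with it all genes at -0.31, Hoxa at 0.09 and Hoxd at -1.04. Without the Ptx3 set all genes were at -0.27, Hoxa at 0.07, Hoxd at -0.89 and Hoxd9 at 0.09, and with it all genes at -0.25, Hoxa at 0.22, Hoxb at -0.74, Hoxd at -0.95 and Hoxa9 at 0.20.

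The library labelled UUO, with 2120 stromal Hox UMIs, limits the precision of every ratio, and 1 library per group leaves the spread between animals unmeasured.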
